A study of Mus musculus with 16 samples.

Results

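The 10 genes described here encode Notch pathway components and Id proteins that hold back muscle differentiation: the ligand Jag1, the receptors Notch1, Notch2 and Notch3, the repressors Hes1, Hey1 and Heyl, and the inhibitors Id1, Id2 and Id3. They were chosen by name, from a list of known inhibitors of myogenic differentiation, with earlier results of these data known. They are 10 of 48432 gene identifiers in the deposited table. All 10 passed the filter on low counts, among 13987 genes tested. None of the 10 passed an adjusted p of 0.05 between electrically stimulated and unstimulated myotubes when all 8 libraries were compared without regard to replicate number. Of all genes tested, 3.06% did (428 genes: 322 higher, or 2.30%, and 106 lower, or 0.758%). When replicate number was added to the fit, Heyl was lower with stimulation, at 0.377 times the control level, and the other 9 genes still did not pass. In that fit 12.1% of all genes were called, and 4.78% were lower with stimulation, so 1 of 10 is near the background.

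The cells were C2C12, a mouse myoblast cell line whose cells fuse into twitching myotubes, used at passage 4 to 8 and differentiated for 5 days. The control group (4 libraries) was not stimulated, and the EPS group (4 libraries) received electrical pulse stimulation, in which 6 ms pulses at 1 Hz and 2.75 V/mm, with a duty cycle of 0.6% and a polarity switch at 0.5 Hz, are applied to the dish. How long the stimulation lasted is not stated in those labels. Each library was made from total RNA with a stranded kit and has 2 GEO samples, 1 per lane. No genetic change is labelled in either group, and a C2C12 culture is a single cell line whose myotubes keep some mononucleated reserve cells beside them. Whether the 4 libraries of a group are separate cultures is not stated, so p-values describe the spread between these libraries alone, which may be technical.

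Notch receptors are cut after a ligand on a neighbouring cell binds them, and the released intracellular part joins the DNA-binding protein RBPJ to switch on HES and HEY genes. HES and HEY proteins are basic helix-loop-helix repressors. Id proteins lack the basic DNA-binding region and pair with E proteins, which the myogenic factors MYOD1 and MYOG need as partners, and BMP signalling through SMAD1 is a well-known inducer of Id genes. In skeletal muscle, Notch signalling keeps satellite cells, the stem cells of muscle, from differentiating, and HEYL and HES1 are among its targets there.

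Control replicate 2 held 0.354 M fragments (M, 10 to the power of 6), against 12.6 to 20.7 M in the other 7 libraries. In that library 3 fragments, the limit that a count of 0 allows, correspond to 8.52 counts per M fragments (CPM), against 0.138 to 0.241 CPM in the other 7. These limits cover counting error only. Its members rest on 0 to 79 fragments each, with 0 for Id3 and Jag1, 4 for Id1 and Hey1, 5 for Id2 and Heyl, 6 for Hes1, 10 for Notch3, 34 for Notch1 and 79 for Notch2. Libraries with the same replicate number deviated from their group means together, and the EPS libraries fall into replicates 1 and 2 on one side and 3 and 4 on the other: the correlation across genes between log2 transcript length and a library's log2 deviation was 0.160 and 0.212 in EPS replicates 1 and 2 and -0.288 and -0.247 in replicates 3 and 4. Myotube markers were measured in both groups, at a lower sum in every EPS library than in any control library. The summed level of 15 myotube markers was 30794 to 36865 CPM in control and 18158 to 25385 CPM in EPS, without titin, whose estimate was skipped. The median log2 fold change of the 14 tested markers was -0.70. These markers gave 0 of 14 tested genes past the threshold without the replicate number, and 11 lower and 0 higher with it.

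RefSeq promoter entries (build GRCm38.p6, the patch release of the deposited build) were matched for 6 of the 10 genes, Jag1, Notch1, Notch2, Notch3, Id2 and Id3, and were not matched for Id1, Hes1, Hey1 and Heyl. The 250 bases before each start were searched on both strands for letters that the proteins of this pathway or their partners are known to bind: TGGGAA, the RBPJ core; CACNAG, the N-box of HES repressors; CANNTG, the E-box bound by E proteins with myogenic factors; and CACGTG, a palindromic E-box that is a subset of the E-box. The RBPJ core was in 0 of the 6 windows and in 21.6% of 32851 promoter windows of that length, CACGTG in 0 of 6 and 6.02%, CACNAG in 3 of 6 and 36.7%, and CANNTG in 2 of 6 and 66.2%. Each start is that of the RefSeq entry, which can differ from the gene start given below. By the gene positions given below, the windows of Id2, Id3 and Notch1 and the Jag1 match lie inside the gene. A match describes letters only and is not evidence of binding. The matches in 4 of the genes follow with their flanks, 5′ to 3′ on the gene's strand, with the matched letters in capitals, so that the candidate letters can be seen beside the values that follow. The Id2 match lies at chr12:25096273-25096298, the Jag1 match at chr2:137116587-137116612, the Notch1 match at chr2:26503915-26503940 and the Notch2 match at chr3:98013288-98013306.
Id2, E-box: tttgccacccCAGCTGggctctcgcc
Jag1, E-box: gcgtttcatgCAGCTGatctgaaagg
Notch1, N-box: ggacagggtcCACAAGggggtaaggg
Notch2, N-box: accCTAGTGtttgatgttg
Notch3 had 2 N-box matches, and its whole 250-base window (chr17:32166891-32167140, minus strand) is shown because Notch3 is the receptor with the lowest EPS values relative to control.
Notch3: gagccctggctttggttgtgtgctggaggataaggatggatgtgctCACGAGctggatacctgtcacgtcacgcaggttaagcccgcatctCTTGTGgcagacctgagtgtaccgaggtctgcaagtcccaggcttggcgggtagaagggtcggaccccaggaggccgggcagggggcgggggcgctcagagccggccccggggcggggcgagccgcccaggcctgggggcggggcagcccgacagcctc

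Jag1, a transmembrane ligand of Notch receptors (chromosome 2, 137081456 to 137116644, minus strand, build mm10), was measured at 20.4, 0, 20.5 and 24.7 CPM in control replicates 1 to 4 and at 41.0, 52.4, 21.3 and 25.4 CPM in EPS replicates 1 to 4. EPS replicates 1 and 2 were above every control library, and replicates 3 and 4 lay within or just above the range of the deep controls. The log2 fold change of EPS over control was 0.81 (SE 0.40, approximate 95% interval -0.06 to 1.69, adjusted p = 0.306) and did not pass the threshold. The 0 in control replicate 2 is a count of 0 fragments, which at the limit of 3 fragments allows up to 8.52 CPM. Jag1 was higher in EPS than in the control of the same number in all 4 replicates. In replicates 3 and 4 the ratios of EPS to control were only 1.04 and 1.03, on 261 to 550 fragments per library. The direction in those 2 replicates is therefore not resolved. Of the 10 members 3 moved one way in all 4, Jag1 upward and Id2 and Heyl downward, against 37.7% of all genes (22.0% upward and 15.7% downward).

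Notch1 (chromosome 2, 26457903 to 26516663, minus strand), a receptor that acts in satellite cells, had 126, 96.6, 117 and 131 CPM in control and 142, 281, 95.8 and 98.1 CPM in EPS. The control libraries were close together, and EPS replicate 2 stood above all others while EPS replicates 3 and 4 were below the deep controls. The lowest control, replicate 2, rests on 34 fragments (Poisson 95% interval 66.9 to 135 CPM). Its log2 fold change was 0.37 (SE 0.32, adjusted p = 0.589), and it was -0.11 without EPS replicate 2, so that 1 library set its sign. A non-coding gene on the opposite strand, 0610009E02Rik, overlaps Notch1 by 1488 bases and reached at most 2.97 CPM.

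Notch2 (chromosome 3, 98013527 to 98150361, plus strand), the receptor with the highest level per length, had 253, 224, 308 and 285 CPM in control and 331, 418, 290 and 274 CPM in EPS. The groups overlapped, and EPS replicates 1 and 2 were again the 2 highest libraries. Its log2 fold change was 0.29 (SE 0.18, interval -0.12 to 0.69, adjusted p = 0.445). Unspliced models Gm42819 and Gm42820 on the same strand overlap Notch2, and fragments within the shared bases cannot be assigned to one of them with certainty.

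Notch3 (chromosome 17, 32120820 to 32166852, minus strand), a receptor known from satellite cells and from mural cells of vessels, had 100, 28.4, 121 and 126 CPM in control and 50.2, 48.0, 83.3 and 79.3 CPM in EPS. All 4 EPS libraries were below the 3 deep controls, and only control replicate 2, with 10 fragments and a Poisson 95% interval of 13.6 to 52.2 CPM, was lower. The log2 fold change was -0.62 (SE 0.33, interval -1.35 to 0.12, adjusted p = 0.358). Without control replicate 2 it was -0.83 (adjusted p = 0.0896). With replicate number as a block it was -0.58 (SE 0.19, adjusted p = 0.0822), and with the block and offsets for transcript length and GC content together it was -0.63 (SE 0.16, adjusted p = 0.0235), past the threshold. In that last fit 2 of 10 members were lower, Notch3 and Heyl, and 0 were higher, against 6.22% of all genes called lower and 8.29% called higher. Among the 7 deep libraries 2 of 10 members, Id2 and Notch3, had groups that did not overlap, against 24.8% of all genes, a share near the background, and both were lower in EPS, against 11.0%. Over all 8 libraries 0 of 10 members were free of overlap, against 14.1% of all genes, 4.83% of them lower in EPS.

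**Figure D1:**
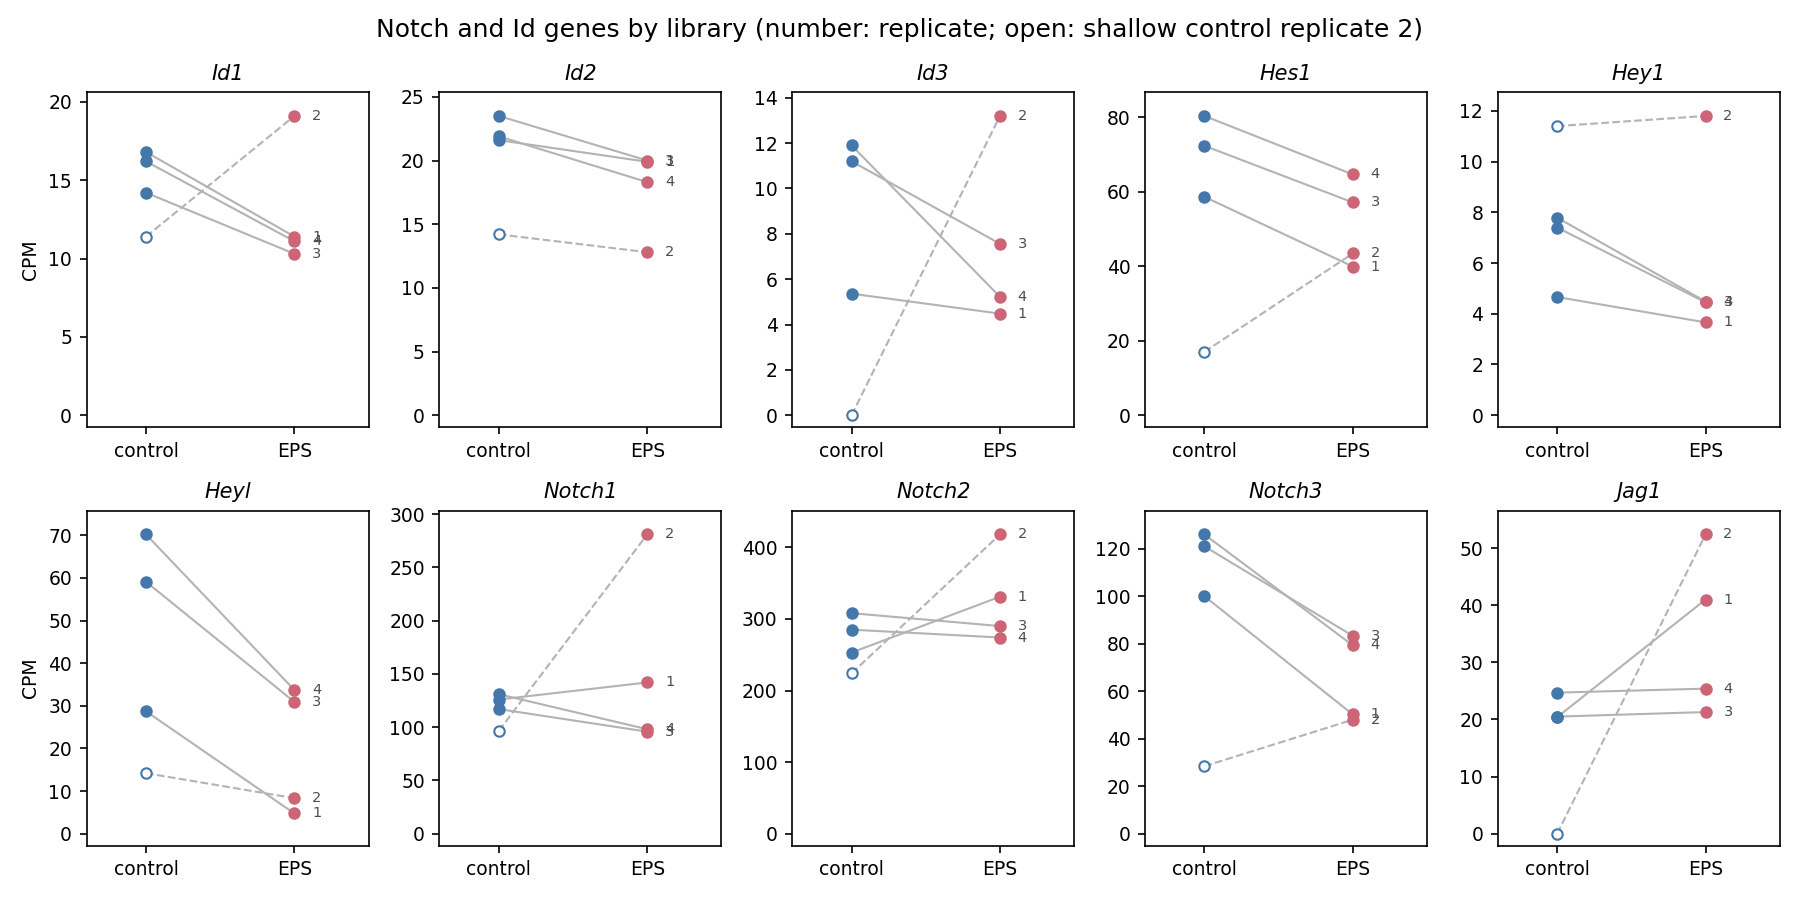
Counts per M fragments (CPM, vertical axes starting at or just under 0, one scale per gene) of the 10 genes in 4 control and 4 EPS libraries, with grey lines joining libraries of the same replicate number and the shallow control replicate 2 drawn open with a dashed line. Heyl and Id2 are lower in EPS in all 4 numbers, and Jag1 is higher in all 4, but nearly level in replicates 3 and 4. EPS replicate 2 is the highest EPS library of Id1, Id3, Hey1, Notch1, Notch2 and Jag1.

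Among the targets, Hes1 (chromosome 16, 30064384 to 30067796, plus strand), the repressor most widely induced by Notch, had 58.6, 17.0, 72.3 and 80.3 CPM in control and 39.9, 43.4, 57.1 and 64.6 CPM in EPS. EPS was lower than control in replicates 1, 3 and 4 and higher in replicate 2, where the control rests on 6 fragments (Poisson 95% interval 6.26 to 37.1 CPM). EPS over control was -0.28 on the log2 scale (SE 0.30, interval -0.94 to 0.39, adjusted p = 0.669).

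Hey1 (chromosome 3, 8663359 to 8667256, minus strand), another target repressor, had 4.66, 11.4, 7.40 and 7.79 CPM in control and 3.66, 11.8, 4.45 and 4.48 CPM in EPS. Only EPS replicate 2 exceeded the controls, by a small margin over a control library with 4 fragments. Its log2 fold change was -0.20 (SE 0.42, interval -1.12 to 0.72, adjusted p = 0.843).

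Heyl (chromosome 4, 123233556 to 123249875, plus strand), the HEY-family repressor prominent in satellite cells, had 28.7, 14.2, 59.1 and 70.2 CPM in control and 4.74, 8.34, 30.9 and 33.7 CPM in EPS. Replicates 3 and 4 were high in both groups and replicates 1 and 2 low in both, so the groups overlapped although each EPS library lay below the control of its own number. The ratios of EPS to control were 0.165, 0.587, 0.523 and 0.480 in replicates 1 to 4. Control replicate 2 rests on 5 fragments (Poisson 95% interval 4.61 to 33.2 CPM), a range that holds the EPS value of 8.34 CPM. The direction in replicate 2 is therefore not resolved. The mean was 43.0 ± 26.0 CPM in control and 19.4 ± 15.0 CPM in EPS (SD, n = 4 each).

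Without the replicate number, the Heyl log2 fold change was -1.28 (SE 0.60, interval -2.60 to 0.05, adjusted p = 0.289). With it as a block, the change was -1.41 (SE 0.26, interval -1.99 to -0.82, adjusted p = 0.00749), and Heyl was the 1 member of 10 that was lower, against 4.78% of all genes called lower and 7.31% called higher in that fit. Without the pair numbered 2, the blocked change was -1.44 (adjusted p = 0.00795), so it did not rest on the shallow library. In that blocked fit without pair 2, chosen after seeing the data, 4 of 10 members were lower, Id1, Hes1, Heyl and Notch3, and 0 were higher, against 8.23% of all genes called lower and 9.10% called higher.

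Levels of satellite and reserve cell markers are given here beside Heyl, since the gene is known from those cells. Pax7, the transcription factor that defines satellite cells, had 13.1, 19.9, 39.0 and 33.6 CPM in control and 9.94, 3.77, 26.7 and 22.2 CPM in EPS. Cd34, a surface marker of quiescent satellite cells, had 16.4, 19.9, 66.1 and 65.0 CPM in control and 15.3, 15.0, 63.1 and 71.4 CPM in EPS. Both were higher in replicates 3 and 4 than in replicates 1 and 2 of both groups, like Heyl, but the list as a whole was not: its summed level was 2324, 1509, 2277 and 2361 CPM in control and 1993, 2443, 1972 and 1959 CPM in EPS. Of its 12 markers, 9 were tested and 0 passed, 3 were lower and 0 higher with the block, and Chrdl2 was at 0 in every library. The 8 fibroblast markers summed to 2295, 1446, 4532 and 4336 CPM in control and 1458, 1164, 3548 and 3483 CPM in EPS, high in replicates 3 and 4 of both groups and lower in EPS in all 4 replicate numbers. Of these 8 markers 4 were tested and 0 passed, 1 was higher and 1 lower with the block, and Tcf21 was at 0 in every library. The 12 markers of cycling cells, all tested, summed to 534, 909, 621 and 1097 CPM in control and 530, 457, 667 and 920 CPM in EPS, with 0 past the threshold and, with the block, 1 higher and 0 lower. In bulk libraries, fewer cells of a type and less RNA per cell cannot be told apart, and the part of these cells in the Heyl values was not tested.

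**Figure D2:**
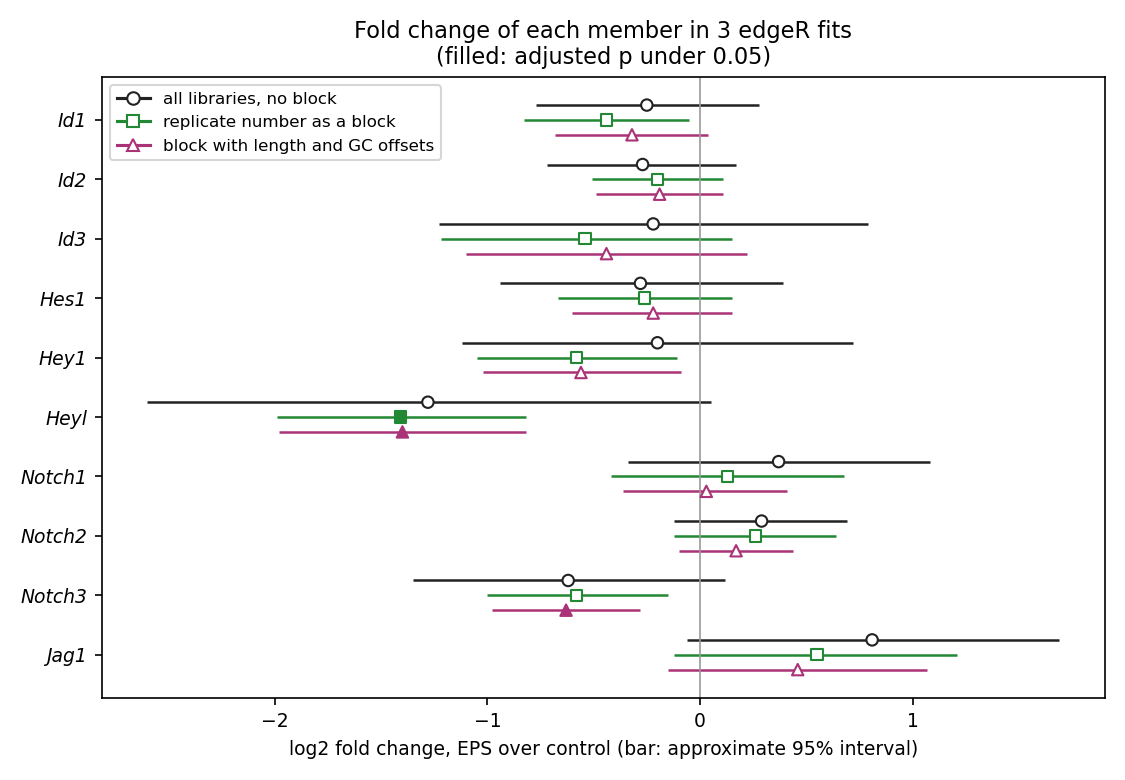
Log2 fold change of EPS over control (horizontal axis) for the 10 genes in 3 edgeR fits, with bars for the approximate 95% interval and filled symbols for an adjusted p under 0.05. Heyl is filled in both blocked fits, at -1.41 and -1.40, Notch3 only with length and GC offsets added, at -0.63, and no gene is filled in the fit without the block.

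Id1 (chromosome 2, 152736251 to 152737410, plus strand), a partner that sequesters E proteins, had 16.8, 11.4, 14.2 and 16.2 CPM in control and 11.4, 19.1, 10.3 and 11.1 CPM in EPS. In replicates 1, 3 and 4 EPS lay below control, and in replicate 2 it lay above every control library. The log2 fold change was -0.25 (SE 0.24, interval -0.77 to 0.28, adjusted p = 0.625).

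Id2 (chromosome 12, 25093799 to 25097140, minus strand), which also sequesters E proteins, had 21.6, 14.2, 23.5 and 21.9 CPM in control and 19.9, 12.8, 20.0 and 18.3 CPM in EPS. EPS was lower in all 4 replicate numbers, by small amounts, and each group's replicate 2 was its lowest library. Control replicate 2 rests on 5 fragments (Poisson 95% interval 4.61 to 33.2 CPM), so the direction in replicate 2 is not resolved. The log2 fold change was -0.27 (SE 0.20, interval -0.72 to 0.17, adjusted p = 0.502).

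Id3 (chromosome 4, 136143497 to 136145755, plus strand), another partner of E proteins, had 5.36, 0, 11.2 and 11.9 CPM in control and 4.48, 13.2, 7.56 and 5.22 CPM in EPS. The groups overlapped, and the 0 in control replicate 2 allows up to 8.52 CPM. EPS over control was -0.22 on the log2 scale (SE 0.46, interval -1.23 to 0.79, adjusted p = 0.842). Id4, the remaining family member, was not tested because of low counts, at 0 to 0.379 CPM in control and 0.231 to 3.29 CPM in EPS.

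The median log2 fold change of the 10 members was -0.23, against 0.01 over all genes tested. It was -0.35 with the block, against 0.02 over all genes, and -0.04 with length and GC offsets, where 5 members were above 0 and 5 below, against 0.01. With the block without pair 2, a fit chosen after seeing the data, it was -0.47, against 0.00 over all genes. By unadjusted p under 0.05, 0 of 10 members passed, against 18.5% of genes, and by DESeq2 0 of 10 passed, against 6.63% (4.53% higher and 2.10% lower). The comparison was also run in replicates 1 and 2 alone and in replicates 3 and 4 alone, and no other pairs of numbers were run. With replicates 3 and 4 alone, 7 of 10 were lower in EPS (Id1, Id3, Hes1, Hey1, Heyl, Notch1 and Notch3) and 0 higher, against 7.91% of all genes called lower and 8.16% called higher. With replicates 1 and 2 alone, 1 of 10 was lower, Heyl, and 0 higher, against 0.865% of all genes called lower, 3.56% called higher and 4.42% either way. Each of these fits has 2 libraries per group, and the difference between them was not tested. Replicates 3 and 4 also deviated together across numbers, at correlations of 0.253 and 0.231, so they may not be independent. The SE of Notch3 was 0.07 in replicates 3 and 4 alone, against 0.33 with all libraries.

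Levels were compared between genes as fragments per kilobase of transcript and M fragments (FPKM) in the 3 deep control libraries. Hes1 was highest, at 49.4 ± 6.43 FPKM (SD, n = 3). Notch2 followed at 22.1 ± 4.63, Id2 at 19.1 ± 1.91 and Id1 at 15.0 ± 1.14 FPKM. Notch3 had 13.1 ± 2.46, Notch1 10.0 ± 0.965, Heyl 8.76 ± 3.84 and Id3 8.59 ± 3.28 FPKM, and Jag1, with 3.76 ± 0.199, and Hey1, with 2.78 ± 0.730, were lowest. Neighbours whose ranges did not overlap were Hes1 and Notch2, Id2 and Id1, Id3 and Jag1, and Jag1 and Hey1, while the ranges of all other neighbours overlapped. In EPS Hes1, Notch2 and Id2 were again the 3 highest and Hey1 the lowest, and Heyl had 3.43 ± 2.67 FPKM (SD, n = 4), below Jag1 at 6.11 ± 2.76. Summed over Id1, Id2 and Id3, the level was 39.3, 29.7, 46.7 and 42.1 FPKM in control and 31.0, 46.6, 34.6 and 29.8 FPKM in EPS. The sum over the E proteins Tcf3, Tcf4 and Tcf12 was 94.9, 88.3, 104 and 91.5 FPKM in control and 66.1, 64.6, 84.6 and 73.9 FPKM in EPS. The Id sum divided by it was 0.414, 0.336, 0.449 and 0.460 in control and 0.469, 0.722, 0.409 and 0.403 in EPS. EPS replicate 2 was highest, and EPS replicate 1 lay just above the controls.

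**Figure D3:**
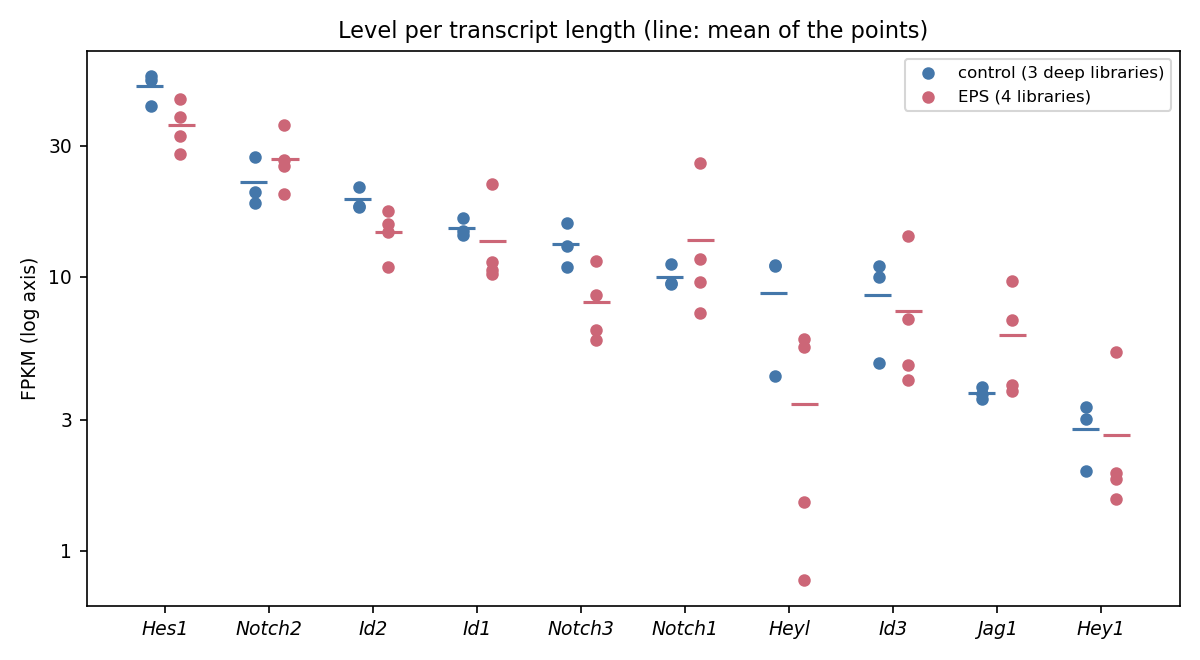
Level per transcript length (FPKM, log axis) of the 10 genes in the 3 deep control libraries and 4 EPS libraries, with a line at each mean. Hes1 is highest in both groups, and Heyl spans the widest range, from 0.779 FPKM in an EPS library to 11.0 FPKM in a control library.

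The other genes of the pathway were counted from 8 lists. Over 118 distinct genes, 96 were tested: 4 were higher in EPS, 2 lower and 90 did not pass, where 2.30% of all genes were higher and 0.758% lower. With replicate number as a block, 6 were higher and 12 lower, where 7.31% of all genes were higher and 4.78% lower. Of the ligands and their regulators, 0 of 7 tested genes passed, with a median log2 fold change of -0.25. Dll1, the ligand made by myoblasts and myotubes that signals to neighbouring satellite cells, had 59.5, 22.7, 39.5 and 33.6 CPM in control and 24.6, 24.6, 22.1 and 21.1 CPM in EPS, and was -0.84 on the log2 scale (adjusted p = 0.0797; with the block, adjusted p = 0.0118, lower in EPS). Without control replicate 1, its highest library, Dll1 was -0.56 (adjusted p = 0.240), and without control replicate 2 it was -0.94 (adjusted p = 0.0461); it did not pass without any other single library. Jag2 was -0.35 (adjusted p = 0.371). Of 14 receptor processing genes and 14 genes of the nuclear complex and its corepressors, 0 passed with or without the block, and Rbpj, the DNA-binding partner of the receptors, was 0.43 (adjusted p = 0.325).

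Among 11 tested genes that oppose Notch or turn it over, Fbxw7, the ubiquitin ligase subunit that targets the Notch intracellular domain, was lower. It had 202, 222, 178 and 180 CPM in control and 85.3, 111, 88.7 and 99.6 CPM in EPS, with no overlap. Its log2 fold change was -1.01 (SE 0.15, adjusted p = 0.00712), and it passed whichever library was left out. The protein-coding model Gm37240 overlaps Fbxw7 over its length on the opposite strand.

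Of the 5 tested genes among other HES and HEY factors and Notch targets, 3 were higher and 0 lower. Myc, a growth-promoting transcription factor, rose from 28.5 to 87.2 CPM on average (log2 fold change 1.44, SE 0.28, adjusted p = 0.0239). Gata3, a transcription factor that Notch switches on in T cells, had 4.17, 2.84, 4.09 and 4.59 CPM in control and 28.6, 59.3, 10.0 and 9.65 CPM in EPS (log2 fold change 2.66, adjusted p = 0.0409). Gata3 was 1.91 without EPS replicate 2 (adjusted p = 0.0321) and 1.85 with the block (adjusted p = 0.00484). Ccnd1, cyclin D1, rose from 38.5 to 76.6 CPM (log2 fold change 0.93, adjusted p = 0.0476), and it overlaps LTO1 on the opposite strand by 1771 bases. These 3 genes have many inputs besides Notch. Each lost its call when 1 library was left out: Myc without any of control replicates 1, 3 and 4 or EPS replicate 1 (adjusted p up to 0.115), Gata3 without any control library or EPS replicate 1 (up to 0.149), and Ccnd1 without any library other than control replicate 4 (up to 0.176). Hes6, which opposes HES1 and promotes differentiation, had 185, 76.7, 178 and 194 CPM in control and 83.8, 63.0, 118 and 140 CPM in EPS. The log2 fold change of Hes6 was -0.69 (adjusted p = 0.253), and it was lower with the block (-0.66, adjusted p = 0.0222). Nrarp, the remaining tested gene of this list, had 2.22, 0, 2.60 and 3.20 CPM in control and 1.96, 1.52, 1.14 and 2.17 CPM in EPS. It was -0.58 on the log2 scale (adjusted p = 0.457, with the block 0.305) and did not pass.

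Upstream of Id genes, 0 of 23 tested BMP pathway genes passed, and with the block 2 were higher and 2 lower. Smad7, an inhibitor of TGF-beta and BMP signalling, had 27.4, 8.52, 24.8 and 29.7 CPM in control and 101, 147, 43.8 and 44.8 CPM in EPS, with a log2 fold change of 1.73 (adjusted p = 0.0515; with the block 1.31, adjusted p = 0.0179, higher in EPS). Smad1, which carries the BMP signal to Id genes, was 0.57 (adjusted p = 0.219).

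Of 10 E proteins and myogenic factors, 1 was lower and 0 higher, with a median log2 fold change of -0.45. Mef2c, a transcription factor that works with myogenic factors, fell from 1052 to 561 CPM (log2 fold change -0.91, SE 0.18, adjusted p = 0.0287), and it did not pass without any of control replicates 1, 3 and 4 or EPS replicate 1 (adjusted p up to 0.127). With the block 4 were lower: Mef2c, Myod1, Myog and Tcf4. Myod1, the myogenic determination factor, had 181, 99.4, 172 and 153 CPM in control and 51.5, 39.9, 92.4 and 87.2 CPM in EPS, with no overlap (-1.19, adjusted p = 0.0525; with the block adjusted p = 0.00262). Myog, myogenin, was -1.07 (adjusted p = 0.0767; with the block adjusted p = 0.0154). The E proteins Tcf3 and Tcf12, partners of MYOD1 that Id proteins sequester, were -0.13 (adjusted p = 0.798) and -0.30 (adjusted p = 0.310), and Tcf4 was -0.54 (adjusted p = 0.104; with the block -0.53, adjusted p = 0.0211). Of 13 tested genes among other repressors of differentiation, 1 was higher, Sirt1, a deacetylase that represses MYOD1 activity, which rose from 31.4 to 68.5 CPM (log2 fold change 1.17, adjusted p = 0.0352) but did not pass without any control library or EPS replicate 1 (up to 0.143); with the block 1 was higher and 3 lower.

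**Figure D4:**
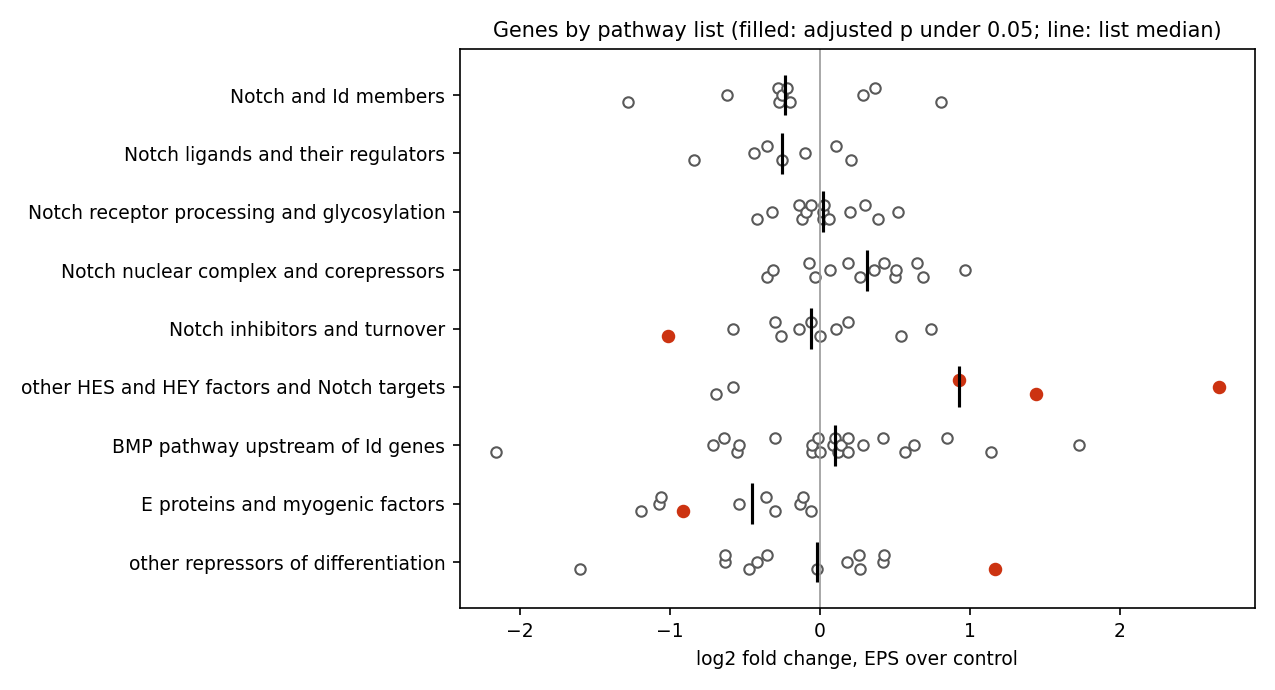
Log2 fold change of EPS over control (horizontal axis) for each tested gene of the 10-gene set and of the 8 pathway lists, with the list median as a line and genes past an adjusted p of 0.05 filled. In the 10-gene set no point is filled, and the 6 filled points are Fbxw7 and Mef2c on the lower side and Myc, Gata3, Ccnd1 and Sirt1 on the higher side.

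Markers of other cell types known to express Notch genes were counted too. Of 6 endothelial markers 1 was tested, Emcn and Tie1 were at 0 in every library, and the summed level was 0 to 1.26 CPM in control and 1.14 to 14.8 CPM in EPS, highest in EPS replicate 2. Of 6 immune markers 1 was tested, and Adgre1 was at 0 in every library. The immune sum was 1.90, 8.52, 2.05 and 1.62 CPM in control and 9.68, 27.7, 2.64 and 2.63 CPM in EPS, again highest in EPS replicate 2. The 8.52 CPM of control replicate 2 corresponds to 3 fragments in that shallow library. The 6 mural cell markers, which include the muscle gene Des, summed to 5585 to 7003 CPM in control and 3188 to 5055 CPM in EPS. Of these 6 markers 4 were tested, with 0 past the threshold. The mural marker Rgs5 was at most 0.160 CPM, 1 of 2 markers under 1 CPM in all deep libraries. The part of these levels in the Notch1, Notch3, Jag1 and Heyl values was not tested.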

How the data were processed

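RNA of 4 control and 4 EPS libraries was sequenced, and the 2 lanes of a library share 1 value per gene in the deposited table. Named in the submitters' processing notes are the aligner STAR 2.5.1, Cufflinks and Cuffdiff 2.2.1, with the build mm10. Per the file headers, the authors' table holds Cuffdiff's estimated counts of fragments per gene, not scaled, and FPKM, scaled by length and library. Neither the labels nor the headers state the strand setting of the counting. The deposited estimated counts were rounded to whole numbers (93.3% of those above 0 were whole already). Symbols, positions and lengths came from GENCODE M21 of the same build, by identifier, for 48051 identifiers. The 46 genes whose estimate was skipped for too many fragments were left out.

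Counts were filtered with filterByExpr (minimum count 10, minimum total 15), scaled by TMM and fitted in edgeR 4.0.16 (R 4.3.3), with its quasi-likelihood test. P-values were adjusted by Benjamini-Hochberg over all 13987 genes, at a threshold of 0.05. The SE is the log2 fold change divided by the root of F, so 95% intervals are approximate. CPM are fragments per M fragments of the library size after TMM scaling, which for EPS replicate 2 was 12.5 M, against 14.6 M fragments counted. Poisson intervals cover counting error only. FPKM served for levels between genes and for alternative tests with limma 3.58.1 on log2(FPKM + 0.1) and log2(FPKM + 1). The other alternatives were DESeq2 1.42.0, other scalings, no filter, libraries left out, replicates 1 and 2 or 3 and 4 alone, offsets for length and GC content, and replicate number as a block. The test was checked on simulated counts.

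Replicate numbers come from the sample titles. Deviations of same-numbered control and EPS libraries from their group means correlated at 0.300, 0.214, 0.286 and 0.297 across 13987 genes (replicates 1 to 4), which by a rule of 0.1 pairs the numbers, although replicates 3 and 4 also correlated across numbers (0.253 and 0.231). Blocked values stand beside a result where they change its call. The members and lists were chosen with earlier results of these data known. Besides the members, the text names each list's genes past the threshold, up to 4 a list, and genes with a set place in the pathway; the most abundant gene of lists with none past it is left unnamed. Hes6, Nrarp, Smad7, Tcf4, Pax7 and Cd34, and Rgs5 and the markers given at 0, were named after their values were seen. One marker is not reported here.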

Additional observations from a re-analysis of the deposited data

Results flagged for a closer look

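In 28 genes and 56 groups of 4 libraries, 5 values stood apart from the other 3 of their group, with a gap to the nearest of them, as a share of the group's range, above Dixon's 95% critical value. Chance alone passes this limit in about 1 in 20 groups. Of the 5, 3 were in EPS replicate 2. Id1 was 19.1 CPM there, against 10.3 to 11.4 CPM in the other EPS libraries. Hey1 was 11.8 CPM there, against 3.66 to 4.48 CPM. Rbpj was 32.4 CPM there, against 19.6 to 21.4 CPM. Ccnd1 was 90.0 CPM in EPS replicate 4, against 72.0 to 72.3 CPM. Hes6 was 76.7 CPM in control replicate 2, the shallow library, against 178 to 194 CPM in the other controls.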

How the results depend on the processing

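No member was called higher under any of 21 alternatives, and none was called in either direction when 1 library was left out, with other scalings, without the filter, with DESeq2, with limma or with length and GC offsets alone. Members called lower numbered 1 with the replicate block, 2 with the replicate block and length and GC offsets, 1 in replicates 1 and 2 only, 7 in replicates 3 and 4 only and 4 with the replicate block without pair 2. Heyl kept its direction in all 21 (-1.94 to -0.94) and passed in 5, Notch3 kept it in all 21 (-0.83 to -0.43) and passed in 3, and Id2 and Jag1 kept theirs and passed in none. The sign of the log2 fold change turned for Id3 to 1.31 and 0.56 with limma on log2(FPKM + 0.1) and log2(FPKM + 1), 0.06 with length and GC offsets, 0.02 without control replicate 4 and 0.89 in replicates 1 and 2 only. Hes1 turned to 0.06 and 0.05 with limma, Id1 to 0.02 with length and GC offsets and 0.01 with them and the shallow library left out, and Hey1 to 0.38 in replicates 1 and 2 only. Notch1 turned to -0.11 without EPS replicate 2, -0.36 in replicates 3 and 4 only and -0.19 with the replicate block without pair 2, and Notch2 to -0.07 in replicates 3 and 4 only. The causes were not tested.

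Over all genes, against 322 higher and 106 lower, DESeq2 called 633 and 294, limma 94 and 29 (pseudocount 0.1) or 130 and 48 (pseudocount 1), the replicate block 1023 and 668, length and GC offsets 502 and 246, and both together 1160 and 870. Replicates 1 and 2 only gave 510 higher and 124 lower, replicates 3 and 4 only 1156 and 1121, and the replicate block without pair 2 1290 and 1167. Without the filter 162 were lower, and with offsets and the shallow library left out 295 were. With 1 library left out, the log2 fold change ran from -0.65 to 0.02 for Id3 and from -0.11 to 0.51 for Notch1. Leaving out 1 library gave 92 to 427 higher and 22 to 167 lower. Higher calls made up 75.2% of calls, and 50.8% to 81.7% under the alternatives. The median over all genes moved by over 0.1 only without the filter (0.15). The replicate block without pair 2 and the offsets with the shallow library left out were chosen after seeing the data. Control replicate 2 held 0 to 79 fragments per member. Without it 0 members were called, and how far it limits what could be detected was not tested.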
